A study of Mus musculus with 16 samples.

Results

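Cells that divide first copy their DNA and then pull the copies apart, and 52 mouse genes that do this work are described here: helicase and fork genes, enzymes of nucleotide supply, E-type cyclins, the cell cycle transcription factors Foxm1, Mybl2 and E2f1, and the genes of mitotic entry, the spindle, its checkpoint, the kinetochore and cytokinesis. They were chosen by gene symbol and not by their values. Each of the 52 symbols matched 1 of the 37991 genes in the deposited count table, and all 52 had enough reads to be tested in every comparison; the lowest count of any of them in any library was 244. By their known roles they were sorted into 11 classes, of which the largest are replication licensing and fork (10 genes), mitotic entry (8), spindle checkpoint and anaphase (8) and cytokinesis (6). The other classes are kinetochore (5), spindle motors and assembly (3), chromosomal passenger complex (3), cell cycle transcription factors (3), deoxynucleotide supply (2), E-type cyclins (2) and chromosome structure (2).

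The 16 RNA libraries come from 8 mouse embryos, each with 1 library of its left and 1 of its right ventricle. The malformed group, of 3 embryos, is labelled with hypoplastic left heart syndrome (HLHS), a condition in which the left ventricle and its valves and outflow are small; the other 5 embryos were littermate controls, and all carry the background C57BL/6 in the labels. Stages are embryonic days: the litter of E13.5 gave 1 HLHS embryo and 1 control, that of E14.5 gave 1 HLHS embryo and 2 controls, and that of E17.5 likewise 1 and 2. Each stage is 1 litter, so stage and litter cannot be told apart. The labels give no allele or genotype for either group, and the titles give the litter of E14.5 another prefix than the others without saying what it means. HLHS replicates 1, 2 and 3 are the embryos of E13.5, E14.5 and E17.5. Control replicate 1 is the embryo of E13.5, replicates 2 and 3 are those of E14.5, and replicates 4 and 5 those of E17.5.

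Before DNA is copied, Cdc6 and Cdt1 load the Mcm helicase onto origins, Gins2 helps to switch it on, and Pcna clamps the polymerases to the fork; E2F factors and E-type cyclins drive this phase. Later, cyclin B with Cdk1, released by Cdc25 phosphatases and helped by Plk1, starts mitosis, while Foxm1 and Mybl2 raise the transcription of the mitotic genes. Kinetochores then tie chromosomes to the spindle, the checkpoint delays anaphase until all are attached, separase (Espl1) cuts the rings that hold sister chromatids together, and Prc1, Ect2, Anln and Racgap1 divide the cell. In the fetal heart muscle cells still divide, and they leave the cell cycle around and after birth.

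Sequencing depth lay between 17081273 and 28648645 counts a library, of which the 52 genes together held 0.466% to 0.742%. Levels are given in CPM (counts scaled to the size of the library, with TMM factors between libraries), and fold changes as log2 values with their standard errors (SE) from edgeR's quasi-likelihood test. A gene counts as past the threshold when its Benjamini-Hochberg adjusted p over all genes tested was under 0.05. The 8 cardiomyocyte markers, the defining genes of the labelled tissue, summed to between 12130 and 23874 CPM in every library. Markers of other cells were found too, fibroblast and mesenchyme markers at 2395 to 5606 summed CPM, endothelial ones at 952 to 1474 and erythroid ones at 441 to 909. From which of these cells the cell cycle transcripts came was not tested. In RNA of whole ventricles, fewer cells of a type and less RNA per cell cannot be told apart, which here holds for the dividing cells.

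Promoters of the genes are shown first, because the letters searched in them were found in different shares of the replication and the mitotic genes. Mitotic genes are known to be held back by the DREAM complex and then driven by Mybl2 and Foxm1 through a CHR element, and replication genes to be driven by E2F factors through an E2F site. The sequences are from RefSeq (GRCm38.p6), 250 bases up to the base before the annotated start, 5′ to 3′ on the strand of the gene. Shown are the 3 genes with each motif whose level changed most with stage in controls. The first 3 have the CHR letters in capitals, TTTGAA or TTTAAA on either strand. They are those of Ccne1 (E-type cyclin; chr7:38107491-38107740, minus strand), Plk1 (mitotic kinase; chr7:122159185-122159434, plus strand) and Ccnb1 (cyclin B1; chr13:100786487-100786736, minus strand).
Ccne1: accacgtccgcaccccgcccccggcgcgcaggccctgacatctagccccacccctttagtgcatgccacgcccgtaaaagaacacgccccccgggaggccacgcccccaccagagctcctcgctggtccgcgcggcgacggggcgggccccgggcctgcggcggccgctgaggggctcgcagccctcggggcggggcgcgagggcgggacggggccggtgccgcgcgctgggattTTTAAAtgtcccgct
Plk1: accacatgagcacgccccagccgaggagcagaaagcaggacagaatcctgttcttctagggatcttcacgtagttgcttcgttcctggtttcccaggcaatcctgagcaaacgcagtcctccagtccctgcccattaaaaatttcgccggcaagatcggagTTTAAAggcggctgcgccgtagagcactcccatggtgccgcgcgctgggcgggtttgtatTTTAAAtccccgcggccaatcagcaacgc
Ccnb1: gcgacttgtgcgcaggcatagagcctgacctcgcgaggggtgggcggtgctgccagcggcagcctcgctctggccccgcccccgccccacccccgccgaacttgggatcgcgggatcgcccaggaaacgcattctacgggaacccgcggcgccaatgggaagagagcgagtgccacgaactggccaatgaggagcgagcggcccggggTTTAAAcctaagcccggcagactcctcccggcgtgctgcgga
The other 3 show in capitals the E2F letters searched, which were TTTCCCGC, TTTCGCGC, TTTGCCGC and TTTGGCGC on either strand; CHR letters in them are left in lower case. They are those of Mcm7 (helicase subunit; chr5:138171884-138172133, minus strand), Cdk1 (mitotic kinase; chr10:69352913-69353162, minus strand) and Cdc6 (helicase loader; chr11:98907901-98908150, plus strand).
Mcm7: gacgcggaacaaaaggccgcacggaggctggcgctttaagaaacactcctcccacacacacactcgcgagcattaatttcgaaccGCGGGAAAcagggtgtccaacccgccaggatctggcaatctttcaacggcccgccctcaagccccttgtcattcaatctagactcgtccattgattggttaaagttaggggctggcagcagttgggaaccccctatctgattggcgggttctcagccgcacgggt
Cdk1: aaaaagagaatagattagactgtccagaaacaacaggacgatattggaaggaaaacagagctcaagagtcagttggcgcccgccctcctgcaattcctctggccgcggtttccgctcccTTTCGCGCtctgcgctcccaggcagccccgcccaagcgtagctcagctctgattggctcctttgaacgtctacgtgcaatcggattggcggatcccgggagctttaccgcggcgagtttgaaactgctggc
Cdc6: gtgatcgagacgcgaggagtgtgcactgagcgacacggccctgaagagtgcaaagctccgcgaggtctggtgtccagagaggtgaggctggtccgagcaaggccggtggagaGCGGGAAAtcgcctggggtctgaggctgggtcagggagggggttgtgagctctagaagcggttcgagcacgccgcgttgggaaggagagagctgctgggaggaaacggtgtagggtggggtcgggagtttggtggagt

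Of the 52 genes, 42 have a promoter in the RefSeq table, searched over 300 bases (250 before and 50 after the start). CHR letters were found in 28 of the 42 (66.7%), against 27.8% of all 27025 promoters of the table. Among the 33 genes of the 6 mitotic classes, 27 had a promoter and 22 of these held CHR letters (81.5%), against 2 of 8 replication genes (25%). E2F letters ran the other way: 6 of 8 replication promoters (75%) and 1 of 27 mitotic ones (3.7%), that of Cdk1, held them, against 2.32% of all promoters. The letters CCAAT, on either strand, were in 29 of 42 (69%) and in 37.9% of all, with nearly the same share of replication genes (75%) and mitotic genes (74.1%). Hits of different motifs overlapped in 1 promoter. A match says only that these letters are in the window, and the letters were chosen with results of these data known. Incenp, Cdc25c, Ccna2, Aurkb, Mcm4, Tpx2, Ccne2, Foxm1, Kif20a and Gins2 have no entry.

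Levels among the 52 genes differed widely when divided by exon length. As CPM per kilobase of exon, averaged over the 10 control libraries, Pcna (134), the ribonucleotide reductase subunit Rrm2 (91.9), topoisomerase Top2a (76.5), the centromeric histone Cenpa (66.0) and Mcm7 (59.8) stood highest. The lowest were Cdc6 (5.63), Gins2 (7.41), Ccne2 (8.26), Mybl2 (8.98) and the checkpoint protein Mad2l1 (9.04). Exon length here is that of all annotated exons of a gene together, so the ranks depend on it. Mad2l1, with 8032 such bases, had a mean of 80.6 CPM in control left and 64.6 CPM in control right ventricles, against 29.4 and 24.5 CPM for Cdc6. Both the highest and the lowest gene are thus from the replication class.

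**Figure D1:**
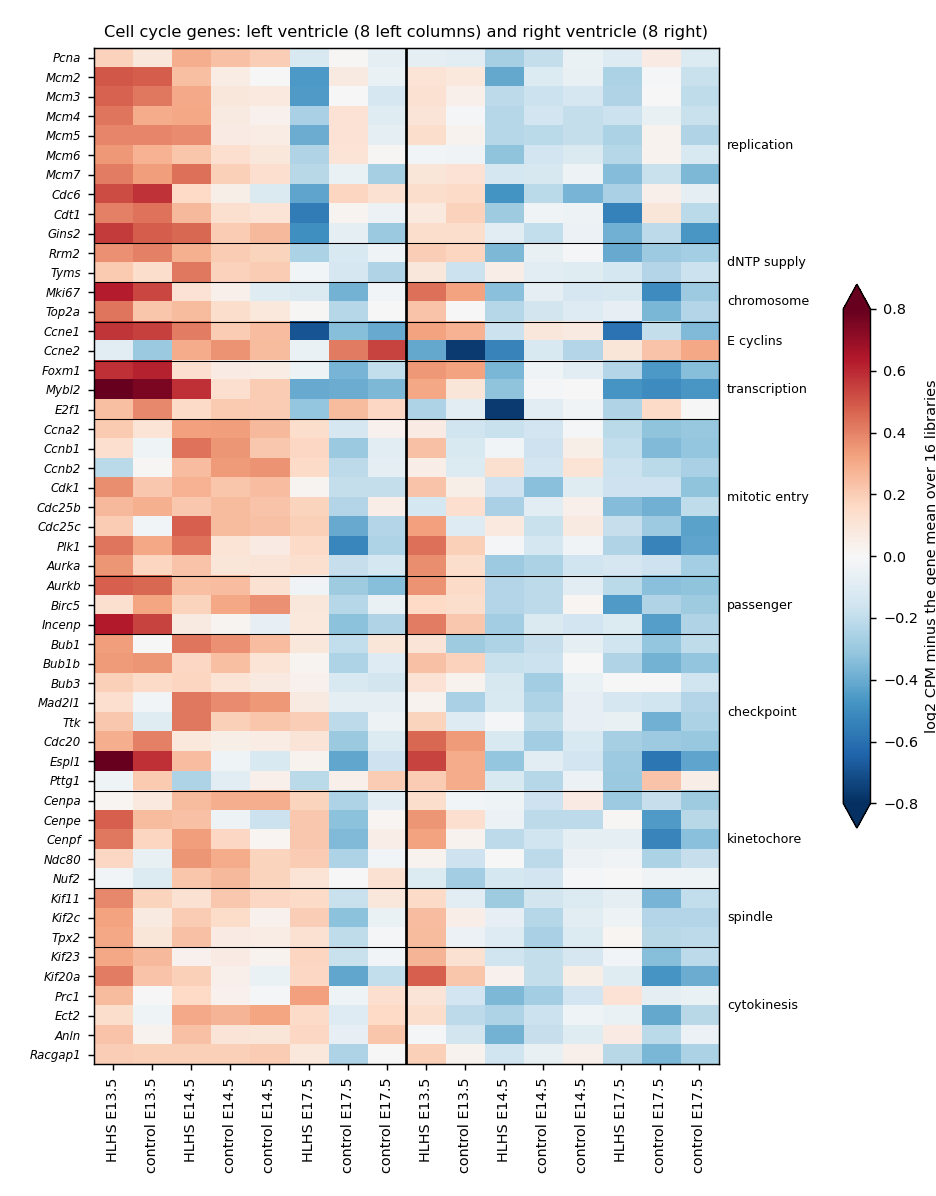
Level of each of the 52 genes (rows, by class) in each of the 16 libraries (columns), as log2 CPM minus the mean of the gene over all libraries; the 8 columns left of the line are left ventricles, each stage with HLHS before control, and the colour scale ends at 0.8 in either direction. Most rows are redder in left ventricles and at E13.5, and the replication rows are blue in the HLHS left ventricle of E17.5, where the mitotic rows are pale red.

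In the left ventricle, the question was how the small ventricle of HLHS hearts differs from that of littermates. Of the 33 genes of the 6 mitotic classes, 10 passed as higher in HLHS, 1 as lower and 22 in neither direction, and none of the 10 replication genes passed. Of the 52 genes, 10 rose and 1 fell in HLHS against controls, matched by stage; of all 15979 genes tested 12.8% passed, 6.17% higher and 6.61% lower. Every one of the 10 that rose belongs to a mitotic class: 4 of 8 of mitotic entry (Plk1, Cdc25c, Ccnb1, Aurka), 2 of 8 of the checkpoint and anaphase (Espl1, Ttk), 2 of 6 of cytokinesis (Kif20a, Prc1), and 1 each of the kinetochore (Cenpe) and of the spindle (Tpx2). The gene that fell is Pttg1. The median log2 change over the 52 was 0.10, with 40 above 0 and 12 below, against 0.0066 over all genes tested. By class the median was 0.22 for the kinetochore, 0.21 for the spindle, 0.17 for mitotic entry, 0.13 for the passenger complex (0 of 3 passed), 0.12 for cytokinesis and 0.11 for the checkpoint, and -0.030 for replication, where 0 of 10 passed.

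Plk1, the kinase that helps to start mitosis and to mature the spindle poles, had the largest change. HLHS left ventricles had 108, 109 and 89.7 CPM at E13.5, E14.5 and E17.5, against 99.99 CPM in the E13.5 control, 87.2 and 84.4 CPM in the E14.5 controls and 56.3 and 67.8 CPM in the E17.5 controls. HLHS was above each control of its own litter, although the HLHS library of E17.5 lies within the range of the controls of earlier stages. Its log2 change was 0.35 ± 0.080 (SE; 3 HLHS and 5 control libraries; edgeR adjusted p = 0.0211). Cdc25c, a phosphatase that activates Cdk1, had 24.4, 29.5 and 24.1 CPM in HLHS left ventricles, against 20.9 CPM at E13.5, 25.3 and 24.9 CPM at E14.5 and 16.0 and 18.004 CPM at E17.5 in controls (0.33 ± 0.081, edgeR adjusted p = 0.0276). Here too the HLHS library was above its own littermates at each stage. Ccnb1, cyclin B1, rose by less (0.23 ± 0.064, edgeR adjusted p = 0.046): HLHS left ventricles had 147, 181 and 150.2 CPM and their controls 131 CPM at E13.5, 171 and 156 CPM at E14.5 and 109 and 126 CPM at E17.5. Aurka, the spindle pole kinase, rose by 0.20 ± 0.054 (edgeR adjusted p = 0.0374).

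Espl1 and Pttg1 are partners that moved in opposite directions. Espl1 encodes separase, and it had 121, 77.6 and 66.9 CPM in HLHS left ventricles at the 3 stages, against 98.4 CPM in the E13.5 control, 64.0 and 60.2 CPM in the E14.5 controls and 49.2 and 58.4 CPM in the E17.5 controls (log2 change 0.31 ± 0.064, edgeR adjusted p = 0.0142). Pttg1 encodes securin, which binds separase and keeps it inactive until anaphase. It had 37.8, 32.6 and 33.3 CPM in HLHS left ventricles, against 44.7 CPM in the E13.5 control, 36.5 and 39.8 CPM in the E14.5 controls and 39.8 and 44.6 CPM in the E17.5 controls (-0.27 ± 0.071, edgeR adjusted p = 0.0346). In each litter the HLHS library was above its littermates for Espl1 and below them for Pttg1.

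Among the structural genes, Cenpe, the kinetochore motor that aligns chromosomes, had 118, 99.5 and 98.0 CPM in HLHS left ventricles, against 101 CPM at E13.5, 82.0 and 74.9 CPM at E14.5 and 67.3 and 85.3 CPM at E17.5 in controls (0.32 ± 0.076, edgeR adjusted p = 0.0259). Kif20a, a motor of the central spindle needed for cytokinesis, rose by 0.29 ± 0.071 (edgeR adjusted p = 0.0264), and Prc1, which bundles the microtubules there, by 0.23 ± 0.055 (edgeR adjusted p = 0.027). Ttk, the kinase at the top of the checkpoint, rose by 0.28 ± 0.067 (edgeR adjusted p = 0.0247) and the spindle assembly factor Tpx2 by 0.21 ± 0.052 (edgeR adjusted p = 0.0308). Of the 10 proliferation markers given in every comparison of HLHS or stage, Plk1 and Ccnb1 passed and 8 did not: the log2 change was 0.11 ± 0.083 for Mki67, 0.15 ± 0.067 for Top2a, 0.019 ± 0.057 for Pcna and -0.079 ± 0.11 for Mcm2, and likewise 0.14 ± 0.048 for Cdk1, 0.13 ± 0.066 for Aurkb, 0.18 ± 0.076 for Bub1 and 0.11 ± 0.064 for Kif23. All these changes are small, since even that of Plk1 is 1.28-fold.

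**Figure D2:**
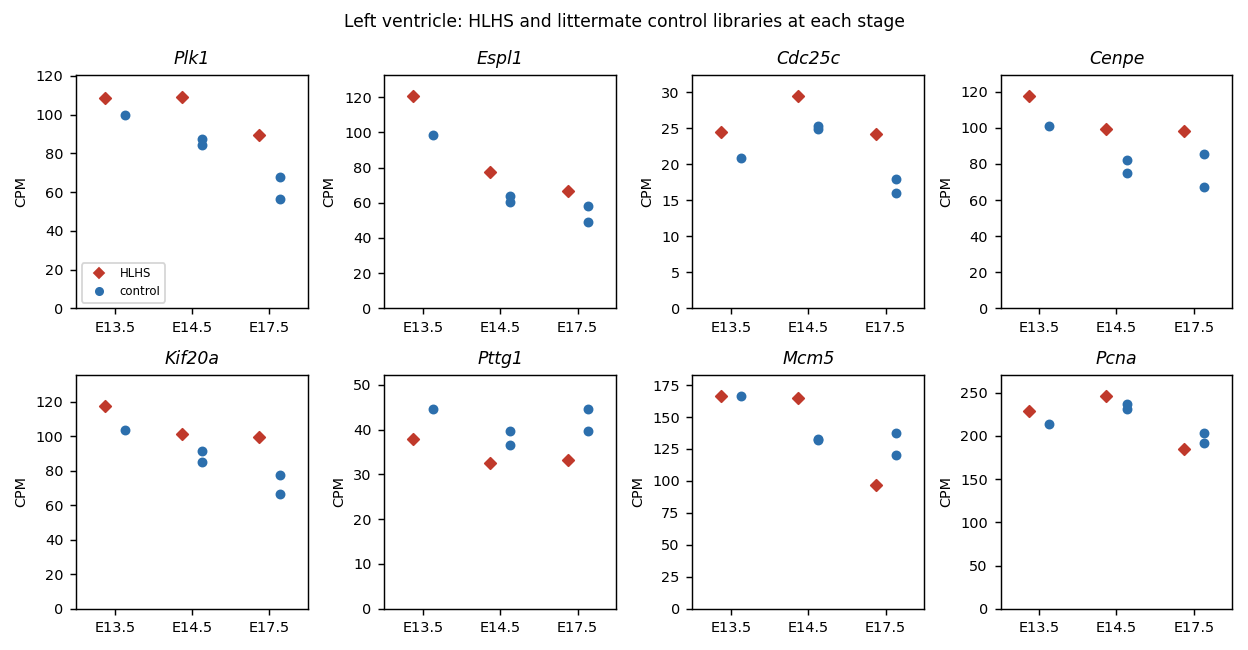
Levels in CPM (y axes start at 0) of 8 genes in the left ventricle at each stage, 1 point per library: HLHS as red diamonds and littermate controls as blue circles. For Plk1, Espl1, Cdc25c, Cenpe and Kif20a the HLHS point is above its littermates at each stage and for Pttg1 below them; for Mcm5 it is above the controls at E14.5 (165 against 133 and 132 CPM) and below them at E17.5 (96.5 against 138 and 120.3 CPM).

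Taken litter by litter, 26 of the 52 genes were higher in HLHS than the mean of the controls in all 3 litters and 2 (E2f1 and Pttg1) lower in all 3; of all genes tested 22.8% were higher in all 3 and 20.7% lower. The count of 11 past the threshold (2043 over all genes) fell without each litter. It was 4 without E13.5 (1464 over all genes), 0 without E14.5 (492) and 6 without E17.5 (1928). It was 2 without control replicate 1, 2 or 3 or HLHS replicate 1, 4 without control replicate 4 and 8 without control replicate 5. Without HLHS replicate 2 it was 0 and without HLHS replicate 3 it was 1. Over all genes it was 1138 to 1657 without 1 control, and 1495, 845 and 2309 without HLHS replicates 1, 2 and 3. The median over the 52 moved little in these, between 0.073 and 0.13. Other cell types differed as well: 7 of 11 erythroid markers tested rose in the HLHS left ventricle, among them Hba-x (log2 change 1.29). The summed level of the list without Tfrc, which did not pass, was 348 to 691 CPM in HLHS and 210 to 430 CPM in controls. Over the libraries of both sides, Rhag and Hbb-bh1 were at 0 in at least 1, for Rhag a right ventricle. Of 7 fibroblast and mesenchyme markers 4 fell (2807 to 3436 CPM in HLHS and 3358 to 4366 CPM in controls), and of 8 endothelial markers 3 fell (952 to 1275 CPM in HLHS and 1263 to 1394 CPM in controls). Of 5 smooth muscle markers 2 rose, Cnn1 (1.60) and Tagln (1.98), and 1 fell (1562 to 2965 CPM in HLHS and 1357 to 1597 CPM in controls), of 8 cardiomyocyte markers 2 fell (13670 to 16230 CPM in HLHS and 12130 to 21762 CPM in controls), and of 5 epicardial markers 1 rose (124 to 217 CPM in HLHS and 124 to 159 CPM in controls). Of 7 macrophage and leukocyte markers 0 passed by edgeR and 0 had an unadjusted p under 0.05. The part of these cells in the mitotic change was not tested.

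Genes of the same pathways outside the 52 were counted against the same 6.17% of all genes higher and 6.61% lower. Of 75 other mitosis genes tested, 8 rose and 0 fell, and 71 had a log2 change above 0 (median 0.15); the largest were Cit, a kinase of cytokinesis (0.40 ± 0.11), Oip5, a loader of the centromeric histone (0.35 ± 0.098), Cdca5, which protects cohesin (0.28 ± 0.069), and the spindle motor Kif18b (0.27 ± 0.074). Of 50 other replication genes 2 rose, Gins4 (0.24 ± 0.065) and Dbf4 (0.23 ± 0.055), and 0 fell, with a median of 0.037. Of 18 other E2F and DREAM factors only the pocket protein Rbl2 rose (0.36 ± 0.098).

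At E17.5 replication and mitosis genes parted in the HLHS left ventricle. All 10 replication genes were below the mean of the 2 littermates, by 0.34 on average (log2; range 0.064 to 0.57), while 32 of the 33 genes of the mitotic classes were above it, by 0.26 on average. In the litter of E14.5 all 10 replication genes were above the littermates' mean, by 0.20, and the mitotic genes were above it by 0.083; at E13.5 the differences were 0.042 and 0.11. For Mcm2, a helicase subunit, the HLHS left ventricle had 216, 181 and 111 CPM at the 3 stages, against 215 CPM in the control of E13.5, 159.5 and 153 CPM in those of E14.5 and 161 and 148 CPM in those of E17.5. For Cdt1 it had 74.8, 67.5 and 38.2 CPM, against 76.3 CPM at E13.5, 61.8 and 60.8 CPM at E14.5 and 57.4 and 54.8 CPM at E17.5. For both genes the HLHS library of E17.5 was the lowest of the 8 left ventricles. The right ventricle of the HLHS embryo of E17.5 had the same split, less wide. All 10 replication genes were below the littermates' mean there, by 0.16 on average, and 29 of the 33 mitotic genes above it, by 0.13. On the right, replication genes were below the littermates' mean at E14.5 too, by 0.12 on average (9 of 10). Cardiomyocyte markers summed to 14881 to 17708 CPM in the ventricles of the HLHS embryo of E17.5 and to 20088 to 23874 CPM in those of its littermates; their part in this difference was not tested. The controls of E17.5 differed among themselves in the same sense. On the left, replication genes of replicate 5 were below those of replicate 4 by 0.14 on average (10 of 10) and mitotic genes above by 0.18 (30 of 33). On the right, replication genes were below by 0.20 (10 of 10) and mitotic genes above by 0.042 (21 of 33). With 1 HLHS embryo a stage, the difference of this embryo and that of its stage cannot be told apart.

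Whether the change from E14.5 to E17.5 differed between HLHS and control was tested with both ventricles of an embryo summed, over 6 embryos with 2 residual degrees of freedom. None of the 52 genes passed, and of all 17759 genes tested 0% did by edgeR's quasi-likelihood test; at an unadjusted p under 0.05 there were 8 of the 52 and 1363 of all, and DESeq2 called 0 of the 52 and 73 of all. The 5 genes with the smallest p were Cdt1 (-0.46 ± 0.15), Mcm5 (-0.43 ± 0.14), Incenp (0.34 ± 0.12), Foxm1 (0.33 ± 0.12) and Mcm3 (-0.33 ± 0.13), with edgeR adjusted p between 0.553 and 0.591. All 10 replication genes were below 0 (median -0.28), and all 8 of mitotic entry and all 6 of cytokinesis above 0 (medians 0.19 and 0.25); over all genes the median was 0.0093. With 1 HLHS embryo at each stage, the spread in these tests comes from the controls alone, and the p-values hold no spread between HLHS embryos. In the left ventricle alone, 4 of the 52 passed, all lower and all of replication: Mcm2 (-0.68 ± 0.098, edgeR adjusted p = 0.0244), Mcm5 (-0.73 ± 0.12, 0.0309), Mcm3 (-0.61 ± 0.099, 0.0334) and Cdt1 (-0.69 ± 0.12, 0.0433), where 1.84% of all genes passed. The median of the replication class was -0.57 there and -0.049 in the right ventricle alone, where 0 of the 52 and 0% of all genes passed. Of the proliferation markers given in every comparison, the change with both ventricles summed was 0.22 ± 0.17 for Mki67, 0.17 ± 0.14 for Top2a, -0.042 ± 0.13 for Pcna, -0.26 ± 0.12 for Mcm2, 0.18 ± 0.11 for Ccnb1, 0.13 ± 0.12 for Cdk1, 0.20 ± 0.13 for Plk1, 0.23 ± 0.12 for Aurkb, 0.13 ± 0.14 for Bub1 and 0.28 ± 0.12 for Kif23.

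**Figure D3:**
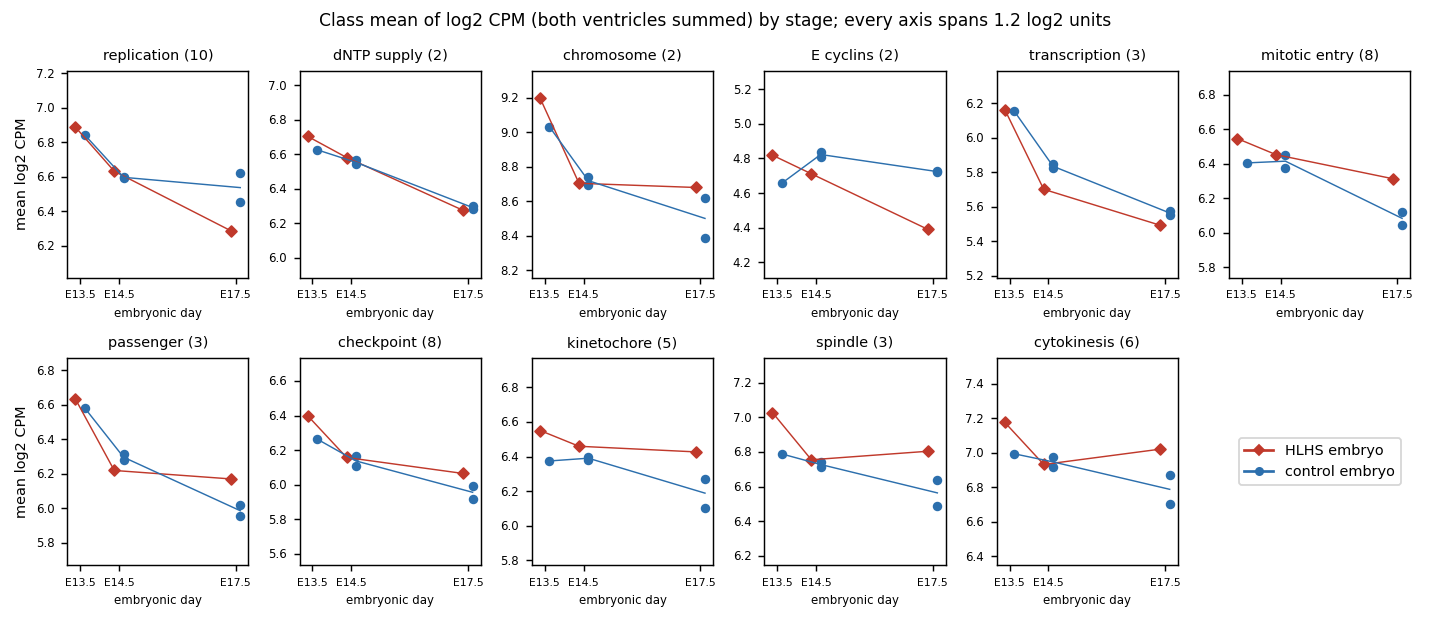
Mean log2 CPM over the genes of each class (number in brackets), with both ventricles of an embryo summed, against embryonic day; red diamonds are the 3 HLHS embryos and blue circles the 5 control embryos, with lines through the means of a stage. At E17.5 the HLHS embryo lies below both controls for replication and E-type cyclins and above both for each mitotic class.

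In the right ventricle, 1 of the 52 genes passed: E2f1, the transcription factor that drives entry into replication, fell. Of all 16142 genes tested 6.61% passed, 3.56% higher and 3.05% lower. E2f1 had 47.1, 32.8 and 47.3 CPM in HLHS right ventricles at E13.5, E14.5 and E17.5, against 52.8 CPM in the E13.5 control, 52.7 and 54.7 CPM in the E14.5 controls and 62.1 and 55.7 CPM in the E17.5 controls (log2 change -0.42 ± 0.10, edgeR adjusted p = 0.0411). All 3 HLHS values lie below all 5 control values. In the left ventricle E2f1 had 66.1, 62.0 and 45.0 CPM in HLHS, against 73.0, 64.6, 64.4, 66.6 and 62.7 CPM in controls, and did not pass (-0.24 ± 0.089, edgeR adjusted p = 0.104). The call on E2f1 was kept when control replicate 2 was left out and lost when any other embryo or any litter was.

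The next 4 genes by p in the right ventricle were Cenpe (0.24 ± 0.068, edgeR adjusted p = 0.0632), Kif20a (0.23 ± 0.073, 0.0925), Tpx2 (0.19 ± 0.064, 0.1) and the helicase loader Cdt1 (-0.30 ± 0.098, 0.1). At an unadjusted p under 0.05 there were 13 of the 52, against 3795 of all 16142 genes, which is nearly the same share. The mitotic classes were led by the same pair as on the left, with medians of 0.17 for the kinetochore, 0.15 for the spindle, 0.11 for cytokinesis, 0.10 for mitotic entry, 0.073 for the checkpoint and 0.067 for the passenger complex, and with all 10 replication genes below 0 (median -0.069; over all genes 0.0081). In all 3 litters 16 of the 52 were higher in HLHS, against 23.3% of all genes, and 5 lower (Mcm7, Cdc6, Cdt1, E2f1 and Cdc25b), against 19.4%. Litters differed: the mean over the mitotic genes was 0.20 for E13.5, -0.026 for E14.5 and 0.13 for E17.5. Among the proliferation markers the change was 0.052 ± 0.097 for Mki67, 0.11 ± 0.082 for Top2a, -0.082 ± 0.070 for Pcna, -0.17 ± 0.075 for Mcm2, 0.16 ± 0.075 for Ccnb1, 0.090 ± 0.073 for Cdk1, 0.18 ± 0.064 for Plk1, 0.067 ± 0.075 for Aurkb, 0.094 ± 0.089 for Bub1 and 0.13 ± 0.066 for Kif23, none past the threshold. None of the other pathway genes passed (0 of 50 of replication, 0 of 75 of mitosis, 0 of 18 factors), while 68 of the 75 mitosis genes had a change above 0. With the ventricles of each embryo summed, 8 of the 52 passed, 7 higher and 1 lower, against 13.8% of all 17429 genes in that fit. Among other cells, 2 of 8 cardiomyocyte markers fell on this side (12444 to 18049 summed CPM in HLHS and 15397 to 23874 CPM in controls), 2 of 5 smooth muscle markers rose (1443 to 1851 CPM in HLHS and 1296 to 1679 CPM in controls), 1 of 8 endothelial markers fell and 1 of 7 macrophage and leukocyte markers rose. Fibroblast and mesenchyme markers, at 3989 to 5606 CPM in HLHS and 2395 to 4800 CPM in controls, had 0 of 7 past the threshold by edgeR and 6 at an unadjusted p under 0.05, all above 0 (median 0.33). Of 13 erythroid markers 0 passed by edgeR and 2 had an unadjusted p under 0.05. Their part in the values of the 52 genes was not tested.

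That 11 genes passed on the left and 1 on the right does not show that the sides differ. Tested within embryos over all 16 libraries, the HLHS effect of the left minus that of the right passed for 0 of the 52 genes by edgeR. Of all 16508 genes 1.04% passed (0.533% higher, 0.503% lower). At an unadjusted p under 0.05 there were 2 of the 52 and 1963 of all genes, and DESeq2 and limma-voom called 0 of the 52 too. The 5 with the smallest p were the Cdk1 phosphatase Cdc25b (0.27 ± 0.072, edgeR adjusted p = 0.127), Espl1 (0.24 ± 0.090, 0.312), Mcm7 (0.15 ± 0.080, 0.521), Plk1 (0.17 ± 0.091, 0.544) and Foxm1 (0.15 ± 0.083, 0.555). The median over the 52 was 0.062, with 46 above 0, against -0.0073 over all genes. For the proliferation markers it was 0.059 ± 0.10 for Mki67, 0.097 ± 0.077 for Pcna, 0.083 ± 0.13 for Mcm2, 0.043 ± 0.085 for Top2a, 0.072 ± 0.10 for Ccnb1, 0.043 ± 0.078 for Cdk1, 0.060 ± 0.089 for Aurkb, 0.089 ± 0.087 for Bub1 and -0.024 ± 0.066 for Kif23. Of the marker lists, 4 of 7 fibroblast and mesenchyme genes, 1 of 8 cardiomyocyte genes and 1 of 5 epicardial genes passed as lower, and 2 of 13 erythroid genes and 1 of 5 smooth muscle genes as higher.

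**Figure D4:**
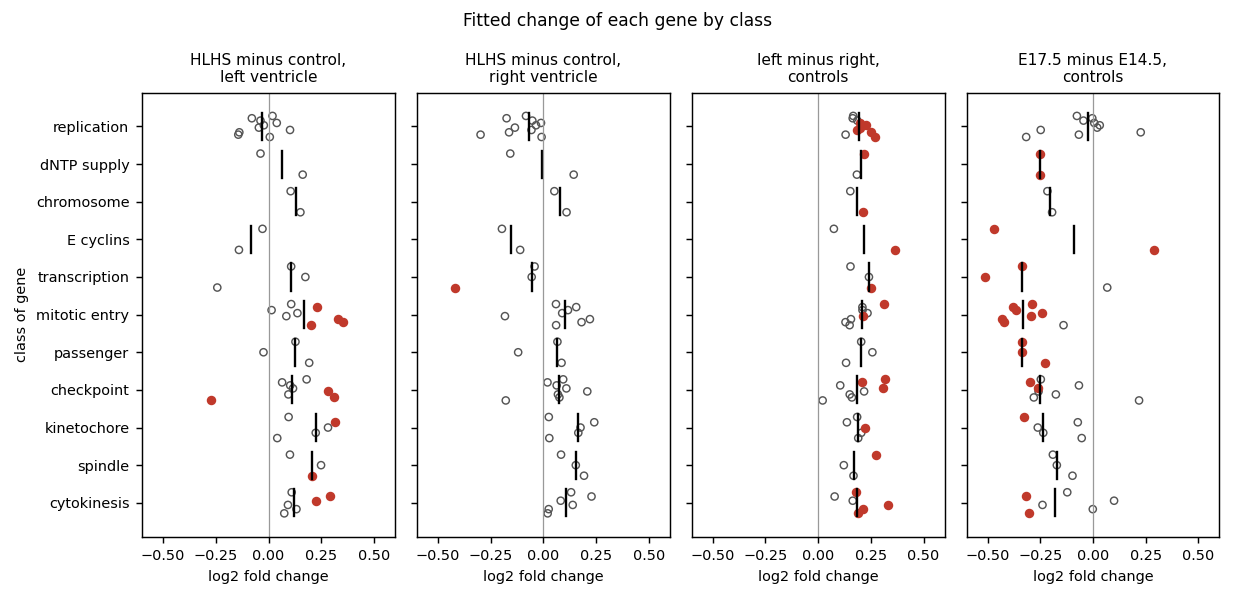
Fitted log2 fold change of each gene (1 circle a gene, rows by class) in 4 comparisons; filled red circles passed the threshold and the black bar is the class median. On the left HLHS changes of mitotic classes lie mostly above 0 and those of replication around 0, all 52 genes lie above 0 between the sides in controls, and mitotic classes lie below 0 between E17.5 and E14.5.

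Levels were higher in the left than in the right ventricle for 21 of the 52 genes and lower for 0, tested between the sides of the 5 control hearts; of all 16238 genes tested 6.1% passed, 2.09% higher on the left and 4.01% lower. All 52 changes were above 0, with a median of 0.20 (range 0.021 to 0.36), against -0.0054 over all genes. Unlike the HLHS effect, this difference covered replication as much as mitosis: 6 of 10 replication genes passed (median 0.19), 4 of 6 of cytokinesis (0.18), 3 of 8 of the checkpoint (0.18), 2 of 8 of mitotic entry (0.21) and 0 or 1 in each other class. In all 5 control embryos 37 of the 52 were higher on the left, against 9.01% of all genes, and 0 were lower in all 5, against 10.3%.

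Ect2, which activates the RhoA switch at the cleavage furrow, passed with the smallest p. Control left ventricles had 90.4, 111, 115, 86.0 and 103 CPM (replicates 1 to 5), against 79.7, 82.1, 90.005, 69.6 and 79.1 CPM in the right ventricles of the same embryos (0.33 ± 0.049, edgeR adjusted p = 0.00377). The left was higher in each embryo, while the 2 groups overlap across embryos. Kif11, the motor that drives the spindle poles apart, had 185, 189.9, 184, 144 and 175 CPM on the left, against 154, 148, 152, 127 and 143 CPM on the right (0.28 ± 0.045, edgeR adjusted p = 0.00621). Cyclin A2 (Ccna2), which serves both phases, had 188, 220.1, 209, 159 and 179 CPM on the left, against 157, 157, 173, 139 and 141 CPM on the right (0.31 ± 0.052, edgeR adjusted p = 0.00734). Both were higher on the left in 5 of 5 embryos.

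Of the replication genes, Gins2 (0.27 ± 0.058), Cdc6 (0.25 ± 0.058), Mcm5 (0.23 ± 0.051), Mcm6 (0.20 ± 0.050), Mcm4 (0.20 ± 0.047) and Mcm7 (0.19 ± 0.048) passed, with edgeR adjusted p between 0.0233 and 0.0495. Mcm5 had 166, 133, 132, 138 and 120.3 CPM in left control ventricles, against 129, 109, 111, 129 and 108 CPM in right ones, so the difference was smaller in the embryos of E17.5. Ccne2, an E-type cyclin, had the largest change of the 52 (0.36 ± 0.065, edgeR adjusted p = 0.00963), and E2f1 (0.25 ± 0.057) and Rrm2 (0.22 ± 0.044) passed too. Among the mitotic genes, the checkpoint kinase Bub1 (0.32 ± 0.060), Mad2l1 (0.31 ± 0.074), the furrow scaffold Anln (0.21 ± 0.045) and Cdc25b (0.21 ± 0.048) passed, as did Bub1b, Cenpf, Kif23 and Racgap1, and with them the chromosome structure gene Top2a, with changes of 0.18 to 0.22. Over single embryos the mean left minus right difference of the 52 was 0.21 in control replicate 1, 0.33 and 0.20 in replicates 2 and 3, and 0.069 and 0.18 in replicates 4 and 5.

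Of the other pathway genes, 16 of 50 of replication were higher on the left and 0 lower, among them Gins1 (0.37 ± 0.083), Dut (0.32 ± 0.065) and Rfc4 (0.32 ± 0.077). So were 29 of 75 of mitosis, with 0 lower, led by the centromere gene Cenpm (0.37 ± 0.074), Depdc1a (0.37 ± 0.083), the kinetochore gene Spc25 (0.35 ± 0.068) and the cohesion enzyme Esco2 (0.34 ± 0.054), and 3 of 18 factors (Mybl1, 0.34 ± 0.080; E2f7, 0.26 ± 0.067; Rbl1, 0.23 ± 0.043). Of 12 erythroid markers 0 passed between the sides of controls (476 to 674 summed CPM on the left and 441 to 598 CPM on the right), and of 8 cardiomyocyte markers 3 were lower on the left (Myl7, Ryr2 and Myh6; 12130 to 21762 CPM on the left and 15397 to 23874 CPM on the right). Of the fibroblast, smooth muscle and macrophage lists 1 gene each was lower on the left. The count of 21 was 9 without control replicate 1, 8 without replicate 2, 6 without replicate 3, 16 without replicate 4 and 8 without replicate 5, and the median stayed between 0.17 and 0.23.

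**Figure D5:**
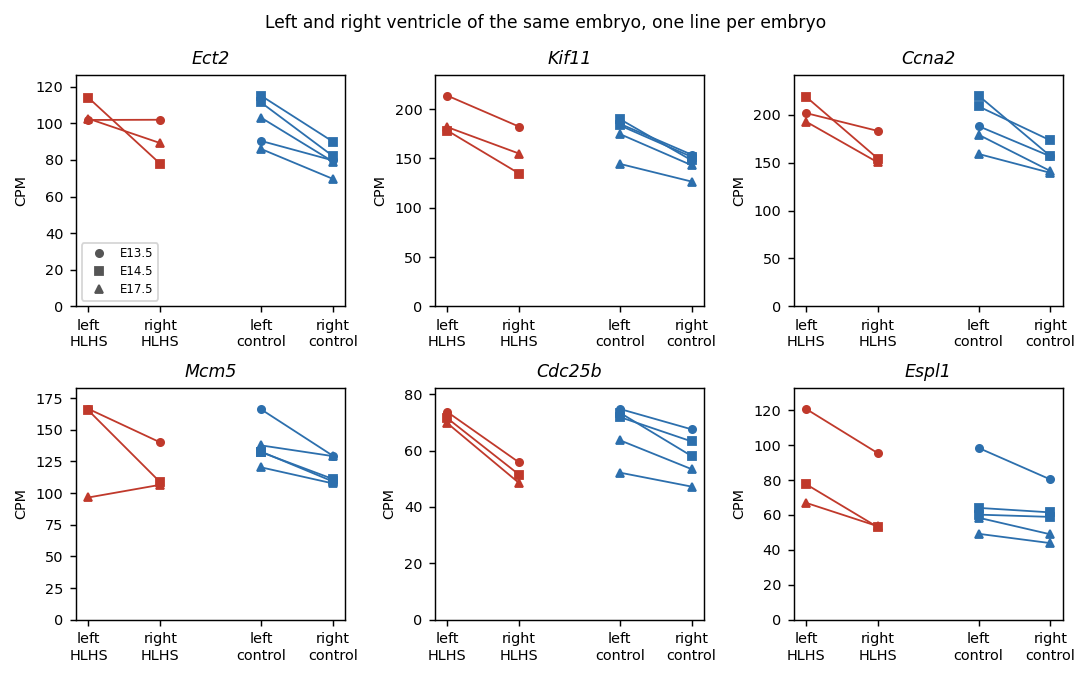
Levels in CPM (y axes start at 0) of 6 genes in the left and right ventricle of the same embryo, 1 line per embryo, HLHS in red at the left of each panel and controls in blue; circles are E13.5, squares E14.5 and triangles E17.5. In controls every line falls towards the right ventricle; for Cdc25b and Espl1 so does every HLHS line, while for Mcm5 that of the HLHS embryo of E17.5 does not (96.5 CPM left and 106 CPM right).

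In HLHS hearts 2 of the 52 genes passed as higher on the left, from 3 embryos, and 0 as lower, while 51 of the 52 changes were above 0 with a median of 0.28 (over all genes 0.015); of all 15771 genes tested 4.04% passed, 1.15% higher and 2.89% lower. Cdc25b had 73.7, 71.5 and 69.7 CPM in HLHS left ventricles, against 55.8, 51.4 and 48.5 CPM in the right ones (0.49 ± 0.079, edgeR adjusted p = 0.0124), and Espl1 had 121, 77.6 and 66.9 CPM, against 95.3, 52.9 and 53.5 CPM (0.43 ± 0.084, edgeR adjusted p = 0.0269). The sides do not overlap for Cdc25b and do for Espl1. Bub1 (0.41 ± 0.10, edgeR adjusted p = 0.0745), Foxm1 (0.33 ± 0.089, 0.0848) and Mybl2 (0.53 ± 0.15, 0.0934) came next. In all 3 HLHS embryos 29 of the 52 were higher on the left, against 16.6% of all genes, and 0 were lower, against 19.9%.

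The HLHS embryos differed among themselves. The mean left minus right difference of the 52 was 0.15 for E13.5, 0.46 for E14.5 and 0.16 for E17.5, and that of the 10 replication genes was 0.34, 0.57 and -0.084, with 1 of 10 above 0 at E17.5. In control embryos the replication mean was 0.32 at E13.5, 0.28 and 0.21 at E14.5 and 0.069 and 0.12 at E17.5. Without HLHS replicate 2 none of the 52 passed, and without HLHS replicate 3 there were 16. Over all genes 637 passed, 270 without HLHS replicate 2 and 1117 without HLHS replicate 3. Of 75 other mitosis genes Cep55, an abscission gene, passed (0.38 ± 0.085), and of 50 other replication genes 0 did. Of 12 erythroid markers 5 were higher and 1 lower on the left (571 to 909 summed CPM on the left and 476 to 534 CPM on the right). Without Tfrc the sums were 348 to 691 CPM on the left and 257 to 398 CPM on the right, which overlap. Of 7 fibroblast and mesenchyme markers 4 were lower (2807 to 3436 CPM on the left and 3989 to 5606 CPM on the right). Of the cardiomyocyte and macrophage lists 1 gene each was lower on the left, and of the epicardial list 1 was higher. Their part in the difference was not tested. The HLHS libraries of this comparison also enter those of HLHS with controls. The control libraries enter the latter and the comparison of the sides in controls. The comparisons are thus not independent.

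Between the stages, 15 of the 33 genes of the mitotic classes passed as lower in E17.5 controls than in E14.5 controls, 18 did not pass, and none of the 10 replication genes passed. With both ventricles of an embryo summed, 20 of the 52 were lower in the 2 control embryos of E17.5 than in the 2 of E14.5 and 1 was higher; of all 16823 genes tested 30% passed, 15.8% higher and 14.1% lower. The median over the 52 was -0.24 (44 below 0), against -0.0069 over all genes. It was -0.33 for mitotic entry (7 of 8 lower), -0.33 for the passenger complex (3 of 3 lower), -0.25 for the checkpoint (2 of 8), -0.24 for the kinetochore (1 of 5), -0.18 for cytokinesis (2 of 6), -0.17 for the spindle (0 of 3) and -0.024 for replication (0 of 10). Both genes of deoxynucleotide supply fell, Rrm2 (-0.25 ± 0.058) and Tyms (-0.25 ± 0.072), and so did Foxm1 (-0.34 ± 0.068) and Mybl2.

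Mybl2, the B-Myb factor of the complex that turns mitotic genes on, fell most. It had 24.1 and 24.7 CPM in the E17.5 controls, against 34.3 and 35.6 CPM in the E14.5 controls (-0.51 ± 0.072; 2 embryos each; edgeR adjusted p = 0.00392), and the E13.5 control had 45.8 CPM. The E-type cyclins moved apart. Ccne1 had 23.0 and 21.2 CPM at E17.5, against 30.6 and 31.1 CPM at E14.5 (-0.47 ± 0.080, edgeR adjusted p = 0.00713), and Ccne2 had 30.5 and 32.8 CPM at E17.5, against 26.8 and 25.3 CPM at E14.5 (0.29 ± 0.076, edgeR adjusted p = 0.0287). At E13.5 the control embryo had 37.0 CPM of Ccne1 and 17.2 CPM of Ccne2. Across the 3 stages the control values of Ccne1 and Mybl2 go down and those of Ccne2 go up.

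In mitotic entry, Ccnb1 had 107 and 117 CPM at E17.5, against 145 and 148 CPM at E14.5 (-0.38 ± 0.061, edgeR adjusted p = 0.00591), Plk1 had 56.0 and 64.0 CPM, against 80.0 and 82.0 CPM (-0.42 ± 0.079, edgeR adjusted p = 0.00942), and Cdc25c had 16.7 and 16.9 CPM, against 21.9 and 23.7 CPM (-0.43 ± 0.086, edgeR adjusted p = 0.0115). No value of one stage reached those of the other. The E13.5 control embryo had 127 CPM of Ccnb1 and 20.3 CPM of Cdc25c, below both E14.5 controls. For Plk1 it had 96.2 CPM, above both. The lower level at E17.5 is thus not a steady fall from E13.5 for each gene. Ccnb2 (-0.36 ± 0.071), Ccna2 (-0.29 ± 0.059), Cdc25b (-0.30 ± 0.091) and Cdk1 (-0.24 ± 0.069) fell too, as did the passenger genes Aurkb (-0.34 ± 0.071), Birc5 (-0.33 ± 0.073) and Incenp (-0.23 ± 0.068). The remaining genes that fell were Bub1b, Mad2l1, Cenpa, Kif20a and Racgap1, by 0.26 to 0.33. Lower in both E17.5 controls than in both of E14.5 were 37 of the 52, against 35.5% of all genes, and 4 were higher in both (Cdc6, Ccne2, Pttg1 and Prc1), against 32.8%.

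Of the proliferation markers given in every comparison, Mki67 (-0.22 ± 0.10), Top2a (-0.19 ± 0.082), Bub1 (-0.25 ± 0.080), Kif23 (-0.12 ± 0.069), Pcna (-0.076 ± 0.072) and Mcm2 (-0.0032 ± 0.067) did not pass between the stages. Mki67 had 331 and 403 CPM in the E17.5 controls, against 443 and 415 CPM in the E14.5 controls and 607 CPM in the E13.5 control. Of the other pathway genes, 42 of 75 of mitosis fell and 2 rose, led by Psrc1 (-0.81 ± 0.11), Cenph (-0.75 ± 0.088), Cks1b (-0.63 ± 0.088) and Cenpk (-0.62 ± 0.11). Of 50 of replication 14 fell and 3 rose, led by the histone chaperone subunit Chaf1b (-0.73 ± 0.082), Prim2 (-0.40 ± 0.088), Rfc5 (-0.39 ± 0.073) and Rfc3 (-0.38 ± 0.080). Of 18 factors, E2f8 (-0.58 ± 0.086) and E2f7 (-0.37 ± 0.098) fell, and Lin52 (0.49 ± 0.088), E2f6 (0.32 ± 0.062) and Tfdp1 (0.25 ± 0.057) rose. With the right ventricle alone 6 of the 52 passed, 1 higher and 5 lower (18.6% of all 15624 genes). Of 13 erythroid markers 7 fell and 1 rose, the transferrin receptor Tfrc (1.22 ± 0.073), which other cells carry too; without it they summed to 210 to 277 CPM at E17.5 and 290 to 395 CPM at E14.5. Of 8 cardiomyocyte markers 5 rose (20088 to 23874 CPM at E17.5 and 12130 to 15605 CPM at E14.5), as did 3 of 7 of fibroblasts and mesenchyme (3982 to 4800 CPM at E17.5 and 3362 to 4784 CPM at E14.5). Endothelial markers had 1 of 8 higher and 3 lower, smooth muscle markers 2 of 5 higher and 1 lower, and macrophage markers 2 of 7 lower. Their part in the stage difference was not tested.

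The comparisons share control libraries. Of the 52, 42 passed in at least 1 of the 7 comparisons, and 10 passed in none: Pcna, Mcm2, Mcm3, Cdt1, Mki67, Bub3, Cdc20, Ndc80, Nuf2 and Kif2c. The 7 comparisons leave out the fits of stage by HLHS in 1 ventricle alone, given above. How many of all genes passed in at least 1 of the 7 was not counted, so the 42 have no share to be set against. Between the stages alone 30% of all genes passed, and for HLHS in the left ventricle 12.8%. By promoter letters, the 28 genes with CHR letters had a median change of -0.24 between the stages (10 lower) and 0.11 in HLHS left ventricles (7 higher), against -0.071 (4 lower) and 0.030 (0 higher, 1 lower) for the 14 without. The 7 genes with E2F letters had medians of -0.045 and -0.038, against -0.24 and 0.11 for the 35 without. Since the letters largely follow the classes, these medians repeat much of the split by class and carry no test.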

How the data were processed

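The deposited table holds raw read counts per gene for 16 libraries, made by the authors from total RNA of left and right ventricles with a poly(A)-selecting kit, per the labels' protocols. Per the submitters' processing notes, TopHat2 2.0.9, Picard, HTSeq 0.5.4p5, edgeR 3.4.2 and the mm9 genome were used; the annotation, the use of strand and the handling of duplicates and of reads that map to several places were not given in the sources used here. Reads of a gene and of near-identical or antisense copies can therefore not be told apart.

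Ensembl gene IDs were matched to symbols for 32919 of 37991 genes (86.6%); the others hold 0.492% of the counts. Tests used edgeR 4.0.16 in R 4.3.3 (TMM scaling, filterByExpr at its minimum count, 10, and its minimum total, 15, quasi-likelihood test), with Benjamini-Hochberg adjustment over all genes tested. The SE is the absolute log2 change divided by the square root of F. HLHS and control were compared within each ventricle with stage as a term. The sides were compared within embryos, and the stages with the counts of both ventricles summed per embryo, so that an embryo counts once. For stage by HLHS, 6 embryos leave 2 residual degrees of freedom. For this test the spread comes from the controls alone. P-values of HLHS against control measure the spread between embryos with stage fitted, and those of the stages the spread between control embryos of a stage. Those of comparisons within embryos measure the spread of left minus right differences between embryos. The tests were checked on simulated data with known fold changes. The size of those changes and the outcome are not given here, so this check says nothing about changes as small as those reported above.

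Pairing comes from the labels: both ventricles carry the name of their embryo. The left difference of the 2 controls of a litter correlated across genes with the right one (r = 0.192 at E14.5 over 16153 genes and 0.298 at E17.5 over 16104 genes). No pair of libraries of a group agreed within counting noise (the smallest chi-square per degree of freedom was 7.51).

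All 52 genes are accounted for. Named were those past 0.05, or the 5 with the smallest p where fewer than 5 passed, 10 proliferation markers in each comparison of HLHS or stage, and up to 4 per list of other pathway genes, of which 1 is not reported here. Promoters shown are the 3 with CHR letters and the 3 with E2F letters that changed most with stage. Genes, lists and motif letters were chosen with earlier results of these data known. Alternatives were RLE scaling, DESeq2 1.42.0, limma-voom 3.58.1, no count filter, a filter of 1 CPM in 3 libraries (2 for summed embryos), globin genes left out, other sample sets and block terms, and leaving out each embryo and litter.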

Additional observations from a re-analysis of the deposited data

Results flagged for a closer look

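In 3 of 104 sets of 5 control libraries, 1 library stood far from the other 4 for its range; chance gives about 1 in 20 such sets. They were Mcm2 in the left ventricle of control replicate 1 (log2 CPM 7.75, or 214.9 CPM, with the other 4 at 147.7 to 161 CPM), Aurka in the right ventricle of control replicate 1 (log2 CPM 6.11, or 69.0 CPM, with the others at 51.8 to 56.1 CPM) and Cdc20 in the same library (log2 CPM 6.99, or 126.7 CPM, with the others at 81.2 to 91.9 CPM). This replicate is the only control of E13.5, so its stage and the embryo cannot be told apart.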

How the results depend on the processing

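Counts are of the 52 genes past the threshold unless a log2 change is named, with the count over all genes in brackets where given. In the left ventricle 11 were reported (2043). RLE scaling, DESeq2, limma-voom, the filters, globins left out, all 16 libraries in 1 fit and summed ventricles gave 8 to 13 (2038 to 2718). Leaving out 1 embryo gave 0 to 8 (845 to 2309), and leaving out the litter of E13.5, E14.5 or E17.5 gave 4, 0 and 6 (1464, 492 and 1928). In the right ventricle, with 1 reported (1067), there were 2 with no count filter (1720) and 2 with all 16 libraries in 1 fit (1662). There were 0 without any litter (192 to 608) and 0 to 1 without 1 embryo (195 to 1518). The fit with summed ventricles gave 8 (2401). It adds the left and right counts of each embryo and is the same fit for both sides, so it does not describe 1 ventricle. For the left minus right HLHS effect every setting gave 0 (3 to 356). For left against right, leaving out 1 embryo gave 6 to 16 in controls (486 to 883) and 0 to 16 in HLHS (270 to 1117). In HLHS, DESeq2 gave 6 (712) and no count filter 13 (1309). Between the stages leaving out 1 embryo gave 11 to 26 and the right ventricle alone 6; the median log2 change was -0.16 with all 8 embryos in 1 fit and -0.14 with the right ventricle alone, and -0.26 to -0.16 without 1 embryo. For stage by HLHS the fits of 1 ventricle alone are given above. HLHS embryos could not be left out, and no count is given without 1 control embryo, for the same reason. The cause of these moves was not tested; fewer embryos also leave less power.

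On the pairing, with no replicate block (no stage term), 0 passed in the left ventricle (1 over all genes) and 0 in the right (0 over all genes). With no embryo term, 0 passed for the sides in controls (32 over all genes) and 0 in HLHS (4 over all genes). So few of all genes passed in these fits that the zeros do not set this gene set apart. For the sides, all 16 libraries in 1 fit with the replicate block gave 6 in controls (666 over all genes) and 12 in HLHS (1129 over all genes). The stage comparisons hold 1 summed sample per embryo, so no block applies.

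Reversed were small changes, except those of Mki67, Top2a and Mcm2 for stage by HLHS, given above. In the left ventricle Mcm2 was 0.024 with no replicate block and 0.13 without E17.5, and -0.26 to 0.13 without 1 embryo; Pcna was -0.041 with summed ventricles, -0.011 without E13.5, -0.015 without E14.5, and -0.014 to 0.089 without 1 embryo. In the right ventricle Bub1 was -0.014 without E13.5 and -0.014 to 0.21 without 1 embryo, and Mki67 -0.077 without E17.5 and -0.075 to 0.20. Without 1 embryo the left minus right effect ran from -0.051 to 0.0048 for Kif23, -0.12 to 0.20 for Mki67, -0.18 to 0.30 for Mcm2, -0.073 to 0.13 for Top2a, -0.0006 to 0.14 for Bub1, -0.012 to 0.17 for Ccnb1, -0.0086 to 0.087 for Cdk1 and -0.0014 to 0.15 for Aurkb. Between the stages Mcm2 was 0.0092 with no count filter, 0.0001 with the right ventricle alone, where Pcna was 0.11, and -0.086 to 0.073 without 1 embryo. For stage by HLHS, the left ventricle alone gave -0.061 for Mki67 and -0.022 for Top2a, the right alone 0.050 for Pcna and 0.15 for Mcm2, and leaving out 1 control gave -0.11 to 0.033 for Pcna.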
